A study of Mus musculus with 12 samples.

Results

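Hif1a, Vegfa, Slc2a1, Hk2, Pfkp, Pgk1, Ldha, Pdk1, Bnip3 and Slc16a3 are 10 genes of the response to low oxygen and of glycolysis. They were chosen by mouse symbol and are 10 of the 55401 genes in the expression table. All 10 had an ID in the table and all 10 were among the 14313 genes tested, those averaging 1 FPKM or more over the 12 samples (FPKM is the fragment count of a gene scaled by its length and by library size). RNA sequencing of skin labelled as dermis was deposited for C57BL/6 mice aged 6 weeks, either wild type (WT) or without both copies of Cthrc1 (Cthrc1-/-). Cthrc1 encodes a secreted glycoprotein of tissue repair. Mice of each genotype were sampled on day 0 and on day 7 of a model with paired wounds of equal size, giving 4 groups (WT or Cthrc1-/-, day 0 or day 7) of 3 samples, described as biological replicates. The labels do not say whether Cthrc1 was deleted in every cell or in one cell type, nor whether an animal gave more than 1 sample. They do not define day 0 further.

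Hypoxia-inducible factor 1 (HIF-1) is a pair of proteins. Its alpha subunit, the product of Hif1a, is made continuously and destroyed while oxygen is present, so its activity is set mainly by protein stability and not by its transcript. When oxygen falls, the pair binds short DNA sites near its targets and raises transcripts for glucose uptake, glycolysis, lactate export and the growth of vessels. Healing skin is a known setting for this program, because torn vessels cut the oxygen supply while incoming neutrophils and macrophages draw heavily on glycolysis.

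HIF-1 sites share the core letters ACGTG or GCGTG, so the upstream sequence of the genes is shown before their values. RefSeq windows (build GRCm38.p6) were available for all 10 genes, and the 250 bases before each annotated start were searched for both cores on both strands, with overlapping matches counted as 1 place. Either core was present in 38.6% of all 32851 windows and ACGTG in 16.6%, so a match is frequent. All 10 genes held at least 1 match in a window, in 11 of their 13 windows. The Vegfa window at the start of the gene held 0, and its matches lay in another window inside the gene. Genes with more than 1 window had more chances of a match, whereas the shares of all windows are per window. At least 3 separate places were found in 4.65% of all windows, and Bnip3 had 4, Ldha 3 and Pfkp 3. A match is a description of letters and not a binding site. The 5 stretches below belong to genes whose values the results turn on. They run 5′ to 3′ on the strand of the gene, capitals mark the core on either strand (CACGT and CACGC are the cores read from the opposite strand), and each stops before annotated exon sequence.
Bnip3, chr7:138909527-138909633, minus strand: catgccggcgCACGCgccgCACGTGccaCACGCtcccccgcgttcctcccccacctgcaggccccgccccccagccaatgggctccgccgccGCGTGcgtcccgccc
Ldha, chr7:46845649-46845784, plus strand: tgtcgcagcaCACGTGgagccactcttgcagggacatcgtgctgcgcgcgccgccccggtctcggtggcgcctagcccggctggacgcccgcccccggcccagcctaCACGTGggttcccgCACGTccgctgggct
Pgk1, chrX:106186940-106186983, plus strand: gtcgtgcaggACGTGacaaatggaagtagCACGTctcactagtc
Slc16a3, chr11:120949030-120949052, plus strand: ggcagcggtgACGTGcgcggggg
Hif1a, chr12:73907722-73907811, plus strand: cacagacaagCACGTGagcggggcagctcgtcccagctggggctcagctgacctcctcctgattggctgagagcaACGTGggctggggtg
In Bnip3, Ldha and Hif1a a core appears on both strands at once in the 6 letters CACGTG, the E-box that other basic helix-loop-helix factors also bind. The Pgk1 stretch holds ACGTG 150 and 131 bases before the start, and the Slc16a3 stretch holds it 27 bases before the start.

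The libraries held 48329668 to 76938132 counted fragments, and each of the 10 genes had between 367 and 79643 counts in every library. Cthrc1 was lower in both Cthrc1-/- groups, at 0 to 0.151 FPKM against 21.1 to 106 FPKM in WT. Marker lists differed widely between samples that carry the same tissue label. Summed hair follicle genes (13 of 14 matched) were 17.1 to 19.3 FPKM in WT on day 0 and 1790 to 4325 in WT on day 7. In the knockout they were 271 to 12552 FPKM on day 0 and 566 to 5718 on day 7. Summed fibroblast genes (8 of 8) on day 0 were 4853 to 6480 FPKM with Cthrc1 and 344 to 2412 without it. Epidermal keratinocyte genes (9 of 9) were abundant in all 12 samples, at 2578 to 9848 FPKM, although the label is dermis. Replicate 1 of WT day 7 stood apart from its group in both the neutrophil and keratinocyte lists. For the 10 genes, the log2 changes printed for comparisons that include it are therefore also given without it. In bulk tissue, fewer cells of a type and less RNA per cell cannot be told apart.

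None of the 10 genes passed the test in any comparison. The 9 genes other than Pfkp had their highest level of all 12 samples in replicate 1 of WT day 7. In all genes tested, 14.8% had their highest value in that library. Relative to the mean of replicates 2 and 3 of its own group, replicate 1 was higher for all 10 genes, by a median of 2.91-fold (range 1.1 to 19.7). In 8 of the 10 genes the ratio was at least 2-fold, against 7.51% of all genes tested, whose median ratio was 0.853.

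**Figure D1:**
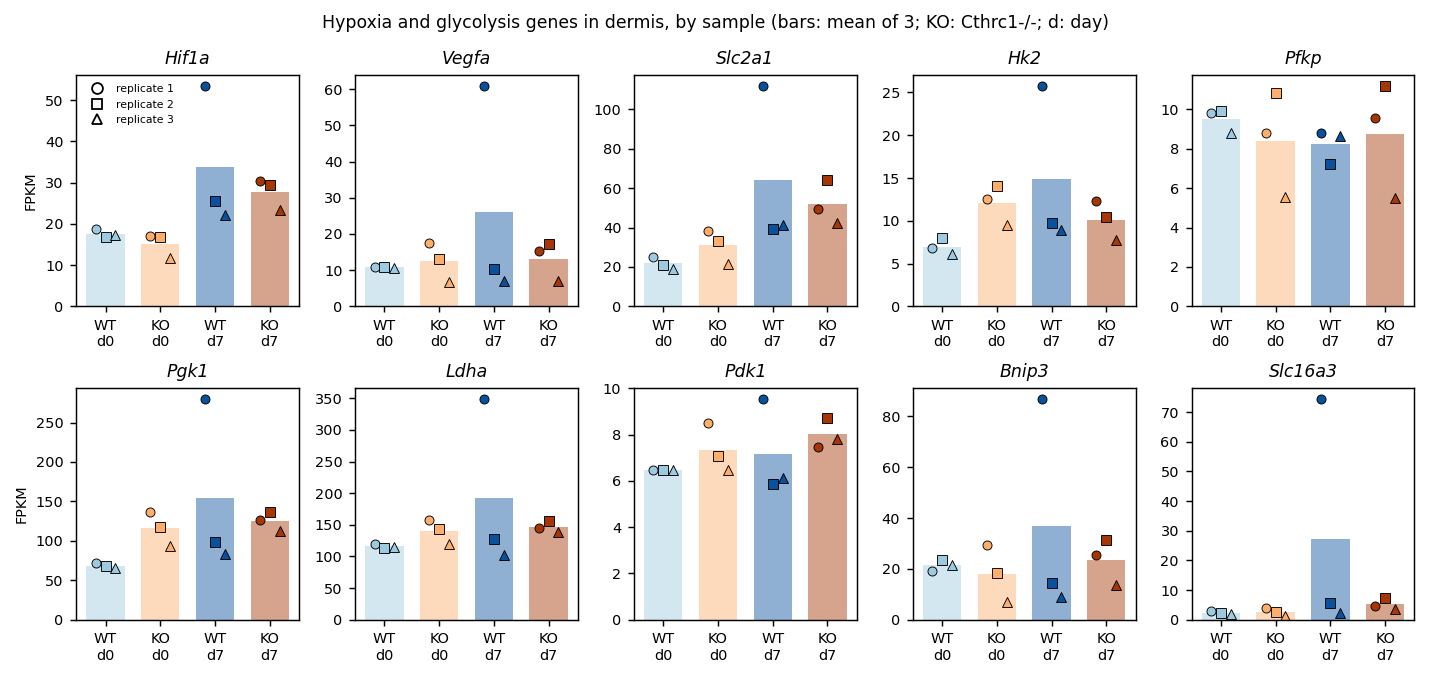
FPKM (y axis, linear, from 0) of the 10 genes in each of the 12 samples, 1 panel per gene; bars are the mean of 3 samples and symbols mark replicates 1 to 3, with KO for Cthrc1-/- and d for day. Replicate 1 of WT day 7 is the highest point in every panel except Pfkp.

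Hif1a, which encodes the oxygen-regulated subunit, was at 18.7, 16.9 and 17.2 FPKM in the 3 WT samples of day 0 (replicates 1, 2 and 3, here and below) and at 17, 16.7 and 11.8 in those of Cthrc1-/-. On day 7 it was at 53.5, 25.5 and 22.1 FPKM in WT and at 30.3, 29.4 and 23.4 in Cthrc1-/-. In FPKM, every day 7 sample lay above every day 0 sample in both genotypes. Groups did not overlap between the days for 44% of all genes tested in WT and for 26.5% in Cthrc1-/-. On counts scaled by trimmed mean of M values (TMM), Hif1a overlapped between the days in WT. The group means were ordered Cthrc1-/- day 0 (15.2 ± 2.89 FPKM, SD, n = 3), WT day 0 (17.6 ± 0.995), Cthrc1-/- day 7 (27.7 ± 3.78) and WT day 7 (33.7 ± 17.2), and only the step from WT day 0 to Cthrc1-/- day 7 separated neighbours without overlap. Epas1, which encodes the HIF-2 alpha subunit, was close in level, and Hif1a made up 43.6% to 59.6% of the summed FPKM of Hif1a, Epas1 and Hif3a over the 12 samples.

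Vegfa encodes the growth factor that drives new vessels. On day 0 it was at 10.9, 11 and 10.7 FPKM in WT and at 17.5, 13 and 6.83 in Cthrc1-/-, whose day 7 samples were at 15.4, 17.3 and 6.92. The WT day 7 samples were at 61, 10.4 and 6.99 FPKM. Without the first of these, the WT day 7 samples lay below all 3 WT day 0 samples. The summed FPKM of 8 endothelial genes was 67.4 to 132 in WT day 7 and 78 to 83 in WT day 0.

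Slc2a1 encodes the glucose transporter GLUT1. On day 0 its level was 25.1, 21.1 and 19.1 FPKM in WT and 38.2, 33.4 and 21.6 in Cthrc1-/-. On day 7 it was 112, 39.3 and 41.1 FPKM in WT and 49.2, 64.2 and 42.5 in Cthrc1-/-. In FPKM, all 6 day 7 samples lay above all 6 day 0 samples. On TMM-scaled counts, Slc2a1 overlapped between the days in Cthrc1-/-. Slc2a1 made up 81.9% to 93.5% of the FPKM of the transporters Slc2a1, Slc2a3 and Slc2a4. Slc2a3, the high-affinity transporter GLUT3 of neurons and white blood cells, was at 23.1 FPKM in replicate 1 of WT day 7 and between 0.483 and 1.05 in the other 11 samples.

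Hk2 encodes the hexokinase that traps glucose in the cell by phosphorylation. The WT day 0 samples were at 6.8, 8.03 and 6.08 FPKM, and those without Cthrc1 were all higher, at 12.5, 14.1 and 9.47. The WT day 7 samples were at 25.8, 9.76 and 8.95 FPKM, also all above WT day 0, although these groups overlapped on TMM-scaled counts. The Cthrc1-/- day 7 samples were at 12.3, 10.4 and 7.75 FPKM. Its share of the summed FPKM of Hk1, Hk2 and Hk3 on day 0 was 41.3% ± 6.51 in WT and 57.3% ± 7.4 in Cthrc1-/- (SD, n = 3), with no overlap. Hk3, a hexokinase of myeloid cells, took 26.8% of that sum in replicate 1 of WT day 7 and at most 7.64% in the Cthrc1-/- day 7 samples.

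Pfkp encodes the platelet-type phosphofructokinase, which commits sugar to glycolysis. It was at 9.81, 9.89 and 8.78 FPKM in WT day 0 and at 8.77, 7.23 and 8.65 in WT day 7. The Cthrc1-/- samples were at 8.81, 10.8 and 5.57 FPKM on day 0 and at 9.53, 11.2 and 5.52 on day 7, so replicate 3 was the lowest on both days. Its exons overlap those of Pitrm1 on the opposite strand, which averaged 16 FPKM, and the strand setting of the counting is not given in the sources used here, so its level is uncertain. Pfkl, the liver-type enzyme, made up 61.1% of the phosphofructokinase FPKM in replicate 1 of WT day 7, where Pfkp made up 20.2%.

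Pgk1 encodes phosphoglycerate kinase, the first step of glycolysis that yields ATP. Its level on day 0 was 72, 68.2 and 65.5 FPKM in WT and, again all higher, 136, 118 and 93.9 in Cthrc1-/-. On day 7 it was 280, 98.2 and 83.1 FPKM in WT and 127, 137 and 113 in Cthrc1-/-. WT day 0 was therefore the lowest group without overlap in FPKM, whereas it overlapped WT day 7 on TMM-scaled counts. Ldha encodes the lactate dehydrogenase subunit that favours lactate production. It was the most abundant of the 10 per length, with 120, 113 and 115 FPKM in WT against 157, 143 and 120 in Cthrc1-/- on day 0. On day 7, Ldha was at 349, 127 and 102 FPKM in WT and at 145, 156 and 139 in Cthrc1-/-. The lowest WT day 7 sample was thus below every sample of the other groups.

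Near-identical gene copies limit both of these levels. Pgk1-rs7, a processed pseudogene that matched a Pgk1 transcript at 100% over 1255 bases, averaged 3 FPKM, and Gm5537 averaged 2.27. Gm9247 matched Ldha at 95.6% over 1000 bases and averaged 1.08 FPKM. How fragments were divided between copies is not given in the sources used here. Ldha made up 96.1% of the summed Ldha and Ldhb FPKM in replicate 1 of WT day 7 and 74.7% to 86.9% in the other samples. Ldhb, the subunit of oxidative tissues, was at 14 FPKM in that replicate, its lowest level of the 12 samples.

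Pdk1 encodes a kinase of pyruvate dehydrogenase. It was the steadiest of the 10 genes, with 6.46, 6.46 and 6.48 FPKM in WT and 8.5, 7.06 and 6.47 in Cthrc1-/- on day 0. On day 7 it was at 9.55, 5.85 and 6.14 FPKM in WT and at 7.48, 8.73 and 7.82 in Cthrc1-/-. All 3 Cthrc1-/- day 7 samples lay above all 3 WT day 0 samples, although neighbours in the order of the group means overlapped. Within the kinase family, the leading transcript in WT was Pdk2 on day 0, at 38.2% ± 2.79 of the summed FPKM (SD, n = 3), and Pdk3 on day 7, at 45.6% ± 5.98.

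Bnip3 encodes a mitochondrial protein of mitophagy and cell death. WT samples had 19.2, 23.6 and 21.5 FPKM on day 0 and 86.9, 14.5 and 9.09 on day 7. Samples without Cthrc1 had 29.2, 18.4 and 6.91 FPKM on day 0 and 25.4, 31.5 and 13.8 on day 7. WT day 7 therefore held the highest sample of the study and also 2 samples below all of WT day 0. Its relative Bnip3l was far more even, at 26.4 to 40.2 FPKM over the 12 samples. The Bnip3 transcript has 5 near-identical gene copies, with at most 0.741 FPKM each.

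Slc16a3 encodes MCT4, the transporter that exports lactate from glycolytic cells. WT samples of day 0 had 2.78, 2.21 and 1.98 FPKM. Samples without Cthrc1 had 4.08, 2.76 and 1.29 FPKM on day 0 and 4.59, 7.18 and 3.74 on day 7. In WT day 7 the gene was at 74.5, 5.46 and 2.09 FPKM. The first sample was 32.1-fold above the WT day 0 mean and the third lay within the WT day 0 range. Slc16a3 exceeded Slc16a1, the transporter MCT1, in replicate 1 of WT day 7 alone, at 76.2% of their summed FPKM against 11.8% to 30.7% elsewhere.

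**Figure D2:**
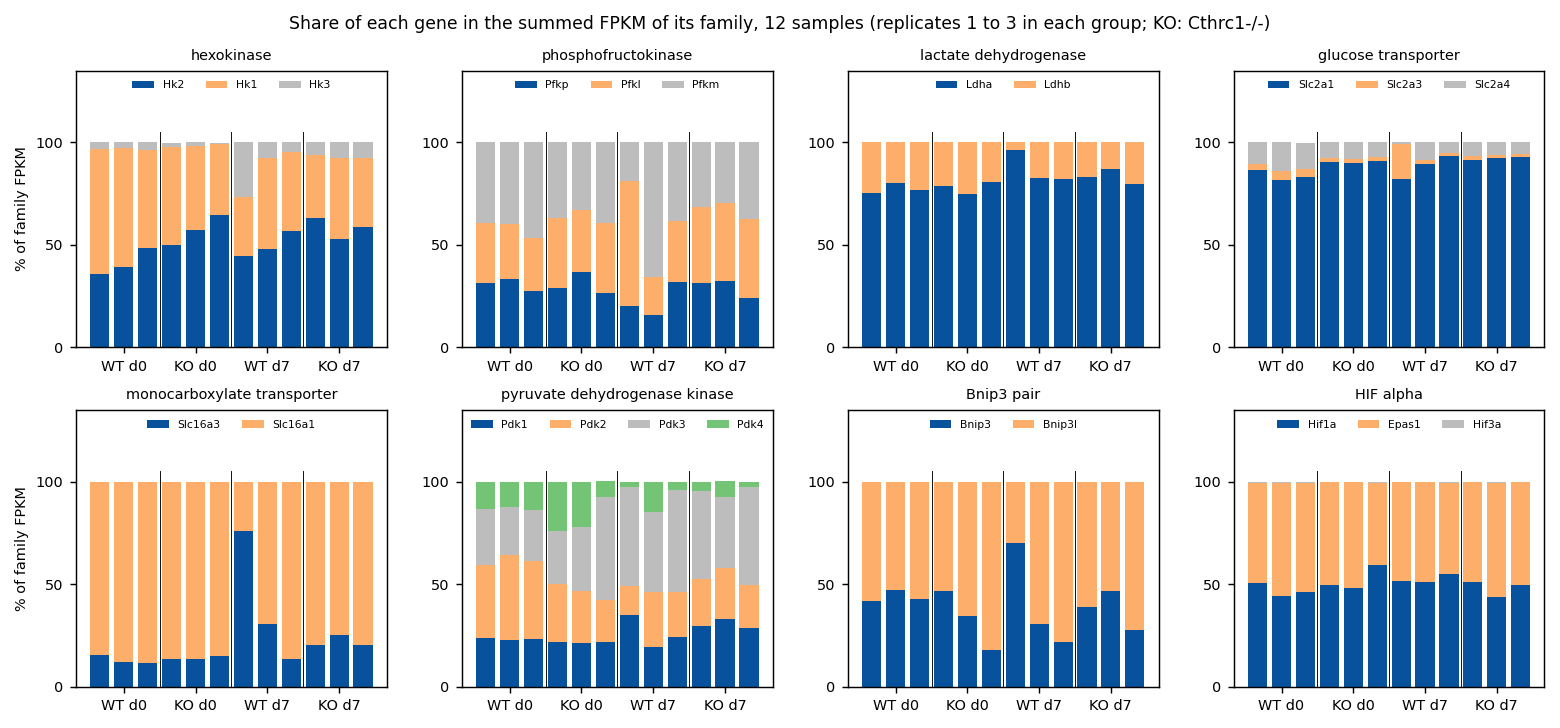
Share (y axis, percent) of each gene in the summed FPKM of its family, with 1 stacked bar per sample, replicates 1 to 3 from left to right in each group, KO for Cthrc1-/- and d for day. Replicate 1 of WT day 7 holds the largest Slc16a3 share, 76.2%, and the largest Ldha share, 96.1%.

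The first comparison asked which of these genes differed between genotypes on day 0. Hk2 and Pgk1, both glycolytic enzymes, were higher in all 3 Cthrc1-/- day 0 samples than in all 3 WT day 0 samples, and the other 8 genes overlapped. Groups did not overlap for 41.4% of all genes tested, so 2 of 10 is below that share. With edgeR's quasi-likelihood test and Benjamini-Hochberg adjustment over all genes, 0 of the 10 were called at adjusted p below 0.05 (0 also at unadjusted p), against 5.78% of all genes tested. Hk2 was higher by a log2 change of 0.69 (SE 0.424, adjusted p = 0.303) and Pgk1 by 0.66 (SE 0.437, adjusted p = 0.339). The 10 changes ranged from -0.31 to 0.69 with a median of 0.13, beside -0.05 over all genes.

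Leaving out replicate 1 of WT day 7, which is in neither group but enters the shared spread and the scaling, made Pgk1 a call in that edgeR test (log2 change 0.71, adjusted p = 0.0299), when 11% of all genes were called. On TMM-scaled counts, Hif1a was also separated, lower in Cthrc1-/- day 0, when 41.5% of all genes were. Of the 9 marker sums, 8 separated the same groups without overlap. Hair follicle, neutrophil (22.7 to 88.7 FPKM against 6.26 to 11.7 in WT) and proliferation genes (72 to 142 against 32.8 to 47.4) were higher in Cthrc1-/- day 0. Fibroblast, macrophage, endothelial, adipocyte and skeletal muscle genes were lower there. The neutrophil gene Ly6g was at 0 in every day 0 sample of both genotypes, so the higher neutrophil sum came from other genes of that list. The part of these cell types in the differences was not tested. Within Cthrc1-/- day 0, replicate 3 was the lowest of all 12 samples for Hif1a, Vegfa, Bnip3 and Slc16a3, while 19.8% of all genes were lowest there. The same replicate had the highest hair follicle sum of the study, 12552 FPKM, and the lowest fibroblast, macrophage and endothelial sums, at 344, 74 and 21.6 FPKM.

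The comparison of genotypes on day 7 showed no separated gene. Groups overlapped for all 10, against 9.13% of all genes without overlap (9.08% on TMM-scaled counts, again with none of the 10). The edgeR test called 0 of the 10, with 0.021% of all genes called, and only Slc16a3 reached an unadjusted p below 0.05. Slc16a3 was lower in Cthrc1-/- by a log2 change of -2.60 (SE 1.11, adjusted p = 0.907). Vegfa followed at -1.15, Bnip3 at -0.82, Hk2 at -0.68 and Ldha at -0.53, while Slc2a1 and Pgk1 were both at -0.43, Hif1a at -0.40, Pfkp at 0.01 and Pdk1 at 0.06. The median was -0.48, beside -0.01 over all genes, and 8 of the 10 values were below 0.

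All 8 of those negative values turned positive without replicate 1 of WT day 7. With the remaining WT samples, all 10 log2 changes were above 0, from 0.10 for Hk2 to 0.97 for Bnip3, with a median of 0.38 and again 0 calls. Slc16a3 was then at 0.42 (SE 0.535), Vegfa at 0.58 (SE 0.448), Ldha at 0.33 (SE 0.161), Slc2a1 at 0.35 (SE 0.258), Pgk1 at 0.45 (SE 0.179), Hif1a at 0.20 (SE 0.191), Pfkp at 0.13 (SE 0.32) and Pdk1 at 0.40 (SE 0.139). The direction of the day 7 genotype difference in these genes therefore rests on 1 library.

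**Figure D3:**
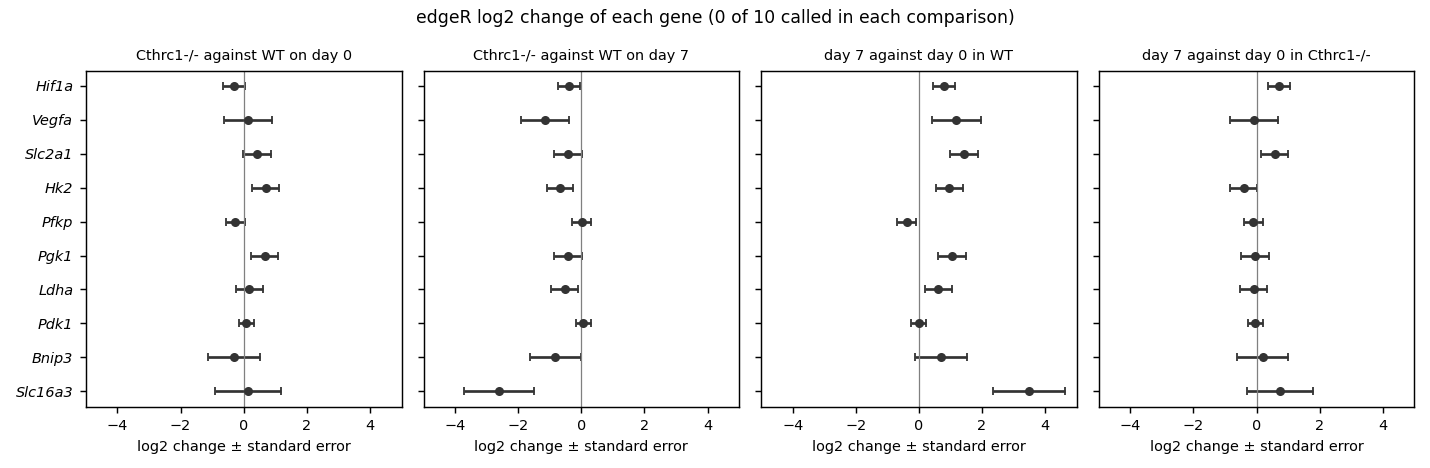
Log2 change (x axis) with its standard error for the 10 genes in 4 comparisons, from the edgeR fit of all 12 samples. Of the 10 points, 8 lie below 0 in the day 7 genotype panel and 8 above 0 in the WT panel, and 0 of 10 passed the test in each panel.

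The change from day 0 to day 7 was examined next within WT mice. Hif1a, Slc2a1, Hk2 and Pgk1 were higher in all 3 WT day 7 samples than in all 3 WT day 0 samples, and Pfkp was lower in all 3. Groups did not overlap for 44% of all genes tested, so 5 of 10 is near that share. On TMM-scaled counts only Slc2a1 (higher) and Pfkp (lower) were separated, with 43.1% of all genes, and Hif1a, Hk2 and Pgk1 overlapped. The edgeR test called 0 of the 10, against 13.1% of all genes, although 5 were at an unadjusted p below 0.05. The largest were Slc16a3 at a log2 change of 3.49 (SE 1.15, adjusted p = 0.0692) and Slc2a1 at 1.43 (SE 0.449, adjusted p = 0.0598). Pgk1 was at 1.04 (SE 0.44, adjusted p = 0.132), Hk2 at 0.96 (SE 0.425, adjusted p = 0.149) and Hif1a at 0.80 (SE 0.352, adjusted p = 0.147). Vegfa was at 1.18 with an SE of 0.771, Bnip3 at 0.69 with an SE of 0.82, Ldha at 0.61 with an SE of 0.425, Pfkp at -0.39 with an SE of 0.303 and Pdk1 at -0.01 with an SE of 0.234. The median was 0.88, beside -0.002 over all genes.

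Slc2a1 lay near the threshold and crossed it under several settings. DESeq2 called it (log2 change 1.47, adjusted p = 0.00738) together with Slc16a3 (3.53, adjusted p = 0.00223), when 24.8% of all genes were called. Slc2a1 alone was called by limma on log2(FPKM + 1), with 13.4% of all genes, by limma on log2(FPKM + 0.1), with 14%, by edgeR on library totals in place of TMM, with 15.5%, and by edgeR without replicate 3 of Cthrc1-/- day 0, with 21%. Without replicate 3 of WT day 7, edgeR called Slc2a1, Pgk1 and Slc16a3, with 14.3% of all genes. Without replicate 1 of WT day 7 none was called, Slc2a1 was at 0.74 (SE 0.252), Slc16a3 at 0.57 (SE 0.525), and 5 of the 10 log2 changes were below 0. Pgk1 was then at 0.26 (SE 0.176), Hk2 at 0.28 (SE 0.229) and Hif1a at 0.29 (SE 0.189). The 5 below 0 were Vegfa at -0.46, Ldha at -0.16, Bnip3 at -1.0, Pfkp at -0.41 and Pdk1 at -0.26. The median then was 0.05.

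**Figure D4:**
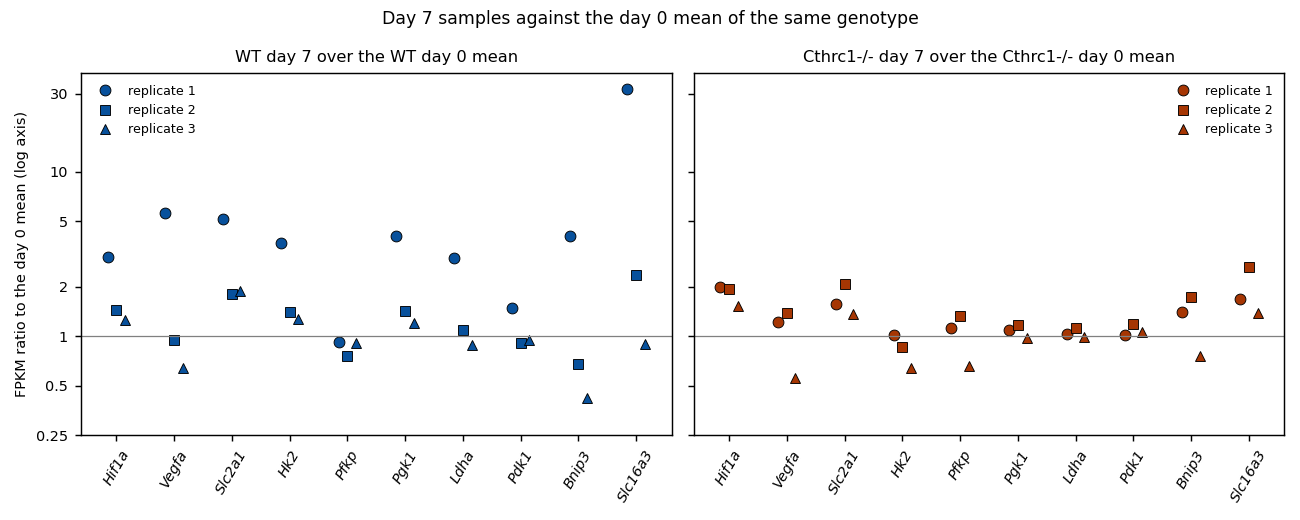
FPKM of each day 7 sample divided by the day 0 mean of the same genotype (y axis, log scale, grey line at 1) for the 10 genes, with symbols for replicates 1 to 3. In WT, replicate 1 reaches 32.1 for Slc16a3 and 5.62 for Vegfa, where replicates 2 and 3 are at 2.35 and 0.899 and at 0.954 and 0.644.

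Marker lists moved with that library. Neutrophil genes (7 of 7 in the table) summed to 5077 FPKM in replicate 1 of WT day 7, to 742 in replicate 2 and to 39.8 in replicate 3. Day 7 samples without Cthrc1 summed to 383 to 1158 FPKM, and WT day 0 samples to 6.26 to 11.7. Of the defining neutrophil genes, Ly6g was at 0 in every day 0 sample. Macrophage genes (8 of 8) summed to 1552, 609 and 300 FPKM in the 3 WT day 7 replicates and to 396 to 412 in Cthrc1-/- day 7. Keratinocyte genes ran the other way, at 2578, 7441 and 9848 FPKM in WT day 7. Hif1a, Vegfa, Hk2, Pgk1, Ldha, Bnip3 and Slc16a3 had the same order over these 3 samples as the neutrophil and macrophage sums. Fibroblast (5346, 4799 and 3562 FPKM) and endothelial sums (132, 103 and 67.4 FPKM) had that order too, so it is not particular to the neutrophil and macrophage lists. The part of these cell types in the values of the 10 genes was not tested.

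**Figure D5:**
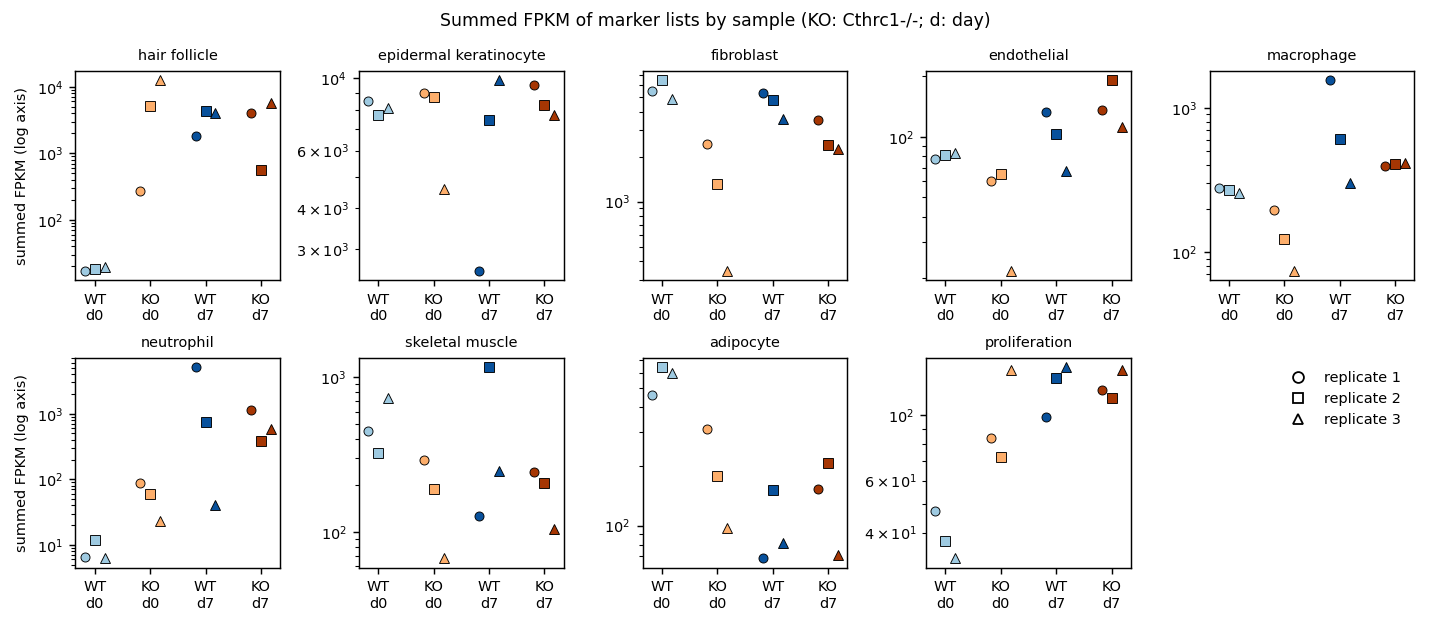
Summed FPKM of each marker list (y axis, log scale) in the 12 samples, with symbols for replicates 1 to 3, KO for Cthrc1-/- and d for day. The neutrophil panel spans 39.8 to 5077 within WT day 7, and the hair follicle panel spans 271 to 12552 within Cthrc1-/- day 0.

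In Cthrc1-/- mice, Hif1a and Slc2a1 were higher in all 3 day 7 samples than in all 3 day 0 samples, 2 of 10 genes against 26.5% of all genes without overlap. On TMM-scaled counts only Hif1a stayed separated, against 24.3% of all genes. The edgeR test called 0 of the 10 (0 also at unadjusted p below 0.05), against 1.46% of all genes. Hif1a was at a log2 change of 0.70 (SE 0.352, adjusted p = 0.322) and Slc2a1 at 0.57 (SE 0.441, adjusted p = 0.537). The 10 values ran from -0.41 to 0.75 with a median of -0.04, beside -0.01 over all genes. Leaving out replicate 1 of WT day 7, which is in neither group but enters the shared spread and the scaling, made Hif1a a call (log2 change 0.75, adjusted p = 0.0356), when 6.36% of all genes were called.

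Whether the day 7 change differed between genotypes was tested as an interaction. The edgeR test called 0 of the 10, against 0.014% of all genes, and Hk2 alone was at an unadjusted p below 0.05. The interaction, the Cthrc1-/- change minus the WT change, was -2.74 for Slc16a3 (SE 1.5), -1.37 for Hk2 (adjusted p = 0.32), -1.27 for Vegfa, -1.09 for Pgk1, -0.86 for Slc2a1 and -0.70 for Ldha. The adjusted p of Slc16a3 was 0.407 and that of Pgk1 0.417. The median was -0.78, beside 0.02 over all genes. Of the 10 values, 9 were below 0. Without replicate 1 of WT day 7, 7 of the 10 were above 0 and the median was 0.26. Bnip3 was then at 1.25 (SE 0.727), Hif1a at 0.46, Vegfa at 0.42 and Pfkp at 0.35. Pdk1 was at 0.27, Slc16a3 at 0.24 and Ldha at 0.11. Hk2 stayed below 0 at -0.64, Pgk1 at -0.26 and Slc2a1 at -0.12, and again none was called.

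The wider pathway was read from 3 further lists, with 27 other glycolysis genes, 10 genes of the HIF system and 22 other HIF targets. Of these 59 genes, 56 were tested. In WT between the days, 4 rose and 4 fell, and these 8 were 14.3% of the 56, near the 13.1% of all genes. Between genotypes on day 0, 1 rose, or 1.79% of the 56 against 5.78% of all genes. EdgeR called 0 in the other 3 comparisons. There, an unadjusted p below 0.05 was found for 12 genes between genotypes on day 7 (21.4%, against 5.46% of all genes), for 7 between the days in Cthrc1-/- (12.5% against 18.1%) and for 6 in the interaction (10.7% against 15.1%). DESeq2 called 1, 2 and 3 in those comparisons, or 1.79%, 3.57% and 5.36%, against 0.433%, 9.84% and 4.76% of all genes. Between genotypes on day 7, 38 of the 56 log2 changes were below 0, and replicate 1 of WT day 7 enters that comparison. The unadjusted count was not taken without that library, so how far the 12 genes rest on it was not tested. EdgeR called 0 of the 56 there when it was left out. In WT between the days, the count of 8 was 5 without replicate 1 of WT day 7 (8.93% against 8.35% of all genes), 16 without replicate 3 (28.6% against 14.3%) and 14 with DESeq2 (25% against 24.8%). It was 2, 1 and 1 without replicates 1, 2 and 3 of WT day 0, when 4.81%, 3.68% and 3.98% of all genes were called. The single gene on day 0 was 1 of 8 with DESeq2 (14.3% against 19.5%) and 1 of 7 without replicate 1 of WT day 7 (12.5% against 11%).

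Among the genes that rose in WT were Plod2, a collagen lysyl hydroxylase, Hmox1, a heme oxygenase, and Ero1l, which drives disulfide formation in the endoplasmic reticulum. Plod2 was at 1.98, 1.11 and 1.44 FPKM on day 0 and at 38.2, 5.73 and 4.15 on day 7 (log2 change 3.32, edgeR adjusted p = 0.0306). Hmox1 was at 20.6, 23.3 and 22.9 FPKM on day 0 and at 367, 85.8 and 45.5 on day 7 (log2 change 2.80, edgeR adjusted p = 0.0296). Ero1l was at 8.33, 7.3 and 6.45 FPKM on day 0 and at 42.7, 19.6 and 21.1 on day 7 (log2 change 1.77, edgeR adjusted p = 0.0163). All 3 had replicate 1 as the highest WT day 7 sample and were above day 0 in the other replicates too. Plod2 was no longer called without that library (log2 change 1.56), while Hmox1 and Ero1l were. Plod2 and Hmox1 also lost their calls in a fit of only the groups compared (adjusted p = 0.0806 and 0.0812). Each of the 3 lost its call when any one of the WT day 0 replicates was left out, with edgeR adjusted p up to 0.108 for Plod2, 0.0969 for Hmox1 and 0.0681 for Ero1l over all alternatives.

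Ero1l was also the gene that rose between genotypes on day 0. It was at 15.8, 29.6 and 35 FPKM in Cthrc1-/- day 0, above the 3 WT day 0 samples (log2 change 1.74, edgeR adjusted p = 0.0357). Its order over the Cthrc1-/- day 0 replicates matched that of the hair follicle sum. Hif1a, Vegfa, Slc2a1, Pgk1, Ldha, Pdk1, Bnip3 and Slc16a3 had the reverse order, and Hk2 and Pfkp had neither. The fibroblast, macrophage, adipocyte, skeletal muscle, neutrophil and keratinocyte sums ran in the reverse order of Ero1l. Within WT day 7, Ero1l was highest in replicate 1 (42.7 FPKM), where the hair follicle sum was lowest (1790 FPKM). The part of these cell types was not tested. The day 0 call of Ero1l was lost in 7 of 22 alternatives, among them the fit of only the groups compared, and in each of those its log2 change stayed above 0.

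Of the 4 called genes that fell in WT, the largest changes were those of Cited2, which competes with HIF for its coactivator, Pdk2, a kinase of pyruvate dehydrogenase, and Aldoc, an aldolase of brain. Cited2 was at 15, 19.8 and 22.7 FPKM on day 0 and at 5.75, 9.6 and 11 on day 7 (log2 change -1.34, edgeR adjusted p = 0.0235). Pdk2 was at 9.68, 11.6 and 10.4 FPKM on day 0 and at 3.74, 8.11 and 5.53 on day 7 (log2 change -1.07, edgeR adjusted p = 0.0334). Aldoc was at 4.03, 6.54 and 4.14 FPKM on day 0 and at 2.38, 2.78 and 2.88 on day 7 (log2 change -1.06, edgeR adjusted p = 0.0116). None of the 3 overlapped between the days. Aldoc stayed called in all 22 alternatives, whereas Pdk2 was lost in 9 and Cited2 in 4, replicate 1 of WT day 7 left out being one of them for both. Pdk3 also rose and Pdha1, a subunit of the pyruvate dehydrogenase complex, also fell (log2 changes 0.67 and -0.45, edgeR adjusted p = 0.0314 and 0.0264). Whether the calls of Pdk3 and Pdha1 hold without replicate 1 of WT day 7 is not given here.

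Slc16a3, Bnip3 and Vegfa had the widest range over the 12 samples, and for each the most similar gene was sought among 7695 genes by Pearson correlation of log2(FPKM + 1). Slc16a3 was most like Srgn, which encodes the granule proteoglycan serglycin (r = 0.986, n = 12), and without replicate 1 of WT day 7 the correlation was 0.916 (n = 11). Bnip3 was most like Prr13 (r = 0.962, and 0.918 without that library) and Vegfa most like Hcar2 (r = 0.966, and 0.909 without it). Srgn was at 779 FPKM in replicate 1 of WT day 7 and at 6.53 to 32.2 in the other 11 samples. These correlations describe samples that share groups and library effects, and the partners were picked as the closest of many.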

How the data were processed

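The authors deposited a table with a count and an FPKM value per gene and sample, per the file headers. The submitters' processing notes name GRCm38, cutadapt 1.9, HISAT2 2.0.4, UMI-tools, StringTie 1.3.4d, DESeq2 and edgeR, with no role or order, and the labels' protocols describe stranded poly(A) libraries with molecular identifiers. Counts that are multiples of 4 were over-represented, so the counts may not be single fragments, and a fit of counts divided by 4 was among the alternatives. The deposited FPKM of 0.0001 stood in every place where the count was 0 and was read as 0.

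Counts were tested with edgeR 4.0.16 (quasi-likelihood, R 4.3.3, TMM, a mean per group, all 12 samples, 14313 genes averaging 1 FPKM or more, Benjamini-Hochberg over all of them, called at 0.05). The test was checked on simulated data. No simulated library was made to stand apart from its group, so the check does not cover that case. Alternatives used DESeq2 1.42.0 and limma 3.58.1, library totals or DESeq2 size factors, no filter, only the compared groups, a replicate block and leaving out each sample, and edgeR with legacy=FALSE, which was chosen after seeing the data. The submitters describe 3 biological replicates per group, and whether same-numbered samples were paired is not known.

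The 10 genes, the 3 pathway lists and the marker lists were chosen with earlier results of these data known. The text names all 10 genes, their paralogs, up to 3 called pathway genes with the largest change in each direction per comparison and the closest correlate, outside these lists, of the 3 most variable genes. Pdha1 was named after its values were seen. Near-identical copies (at least 95% over 150 bases, blastn) come from GENCODE M21 on GRCm38.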

Additional observations from a re-analysis of the deposited data

How the results depend on the processing

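The count of called genes among the 10, which was 0 in every comparison, stayed at 0 in all alternatives on day 7 between genotypes and in the interaction, for which a fit of only 2 groups does not exist. In WT between the days it was 2 with DESeq2, 1 with limma on log2(FPKM + 1), 1 with limma on log2(FPKM + 0.1), 1 with library totals, and 0 to 3 when single samples were left out. It was 0 to 1 between genotypes on day 0 and in Cthrc1-/- between the days when single samples were left out. The 1 came without replicate 1 of WT day 7 in both, when 11% and 6.36% of all genes were called. The cause was not tested.

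With samples left out in turn, the day 7 genotype log2 change ran from -0.67 to 0.20 for Hif1a, -1.62 to 0.58 for Vegfa, -0.71 to 0.35 for Slc2a1, -0.97 to 0.10 for Hk2, -0.21 to 0.26 for Pfkp, -0.76 to 0.45 for Pgk1, -0.87 to 0.33 for Ldha, -0.10 to 0.40 for Pdk1, -1.29 to 0.97 for Bnip3 and -3.15 to 0.42 for Slc16a3. In WT between the days it ran from -0.46 to 1.65 for Vegfa, -0.16 to 0.94 for Ldha, -0.26 to 0.14 for Pdk1 and -1.0 to 1.17 for Bnip3. The interaction ran from -1.74 to 0.42 for Vegfa, -1.03 to 0.11 for Ldha and -3.29 to 0.24 for Slc16a3. Pdk1 in WT was 0.03 with DESeq2, 0.10 and 0.11 with limma, 0.16 with library totals, 0.03 with DESeq2 size factors and 0.02 without the filter. Library totals moved the median of all genes by 0.198 in WT and 0.171 in Cthrc1-/- between the days, and raised the share of higher calls in WT from 46% to 75.5%.

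With a replicate block, 0 of the 10 genes were called in all 5 comparisons, Pfkp on day 7 between genotypes was at -0.06 and Bnip3 in WT between the days at -0.03. Plod2 and Hmox1 lost their WT calls with that block (adjusted p = 0.0604 and 0.0623). Correlations of same-numbered samples, taken on deviations from the group mean, ran from -0.232 to 0.426. Those of samples with different numbers ran from -0.453 to 0.52. Such correlations cannot settle whether same-numbered samples were paired. The block changed the count of all genes called in WT from 1880 to 1467 and on day 0 from 827 to 883. Over 37 single values and 808 alternatives, 731 kept direction and side of the threshold, 34 lost a call, 11 gained one and 32 changed sign. The values of the 10 genes were not called at the start and could not lose a call. Losses fell only on the called pathway genes, with 22 alternatives each. They were 9 for Pdk2, 7 for Ero1l on day 0, 6 for Plod2, 5 for Hmox1, 4 for Cited2, 3 for Ero1l in WT and 0 for Aldoc. Counts of the 10 genes ran from 367 to 79643 per library, and precision rests on 3 samples per group.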

Other observations

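Lox, a collagen crosslinking oxidase outside the 10 genes, was also highest in replicate 1 of WT day 7, at 232 FPKM there and at 2.99 to 43.6 in the other 11 samples. Egln3, which encodes an oxygen-sensing prolyl hydroxylase, had another pattern. Its day 0 samples were at 17.5, 18.3 and 15.5 FPKM in WT and at 80.7, 62.9 and 38.3 in Cthrc1-/-, without overlap, with an edgeR log2 change of 1.74 (SE 0.535, adjusted p = 0.0772) that missed the threshold. Both genes were named after their values were seen, and edgeR called neither in any of the 5 comparisons.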
